A study of Bos taurus with 24 samples.

Results

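The contractile apparatus of myofibroblasts was followed in 10 genes, among 27550 rows that carried a gene symbol, in cultured bovine dermal fibroblasts. They were ACTA2, ACTG2, TAGLN, CNN1, MYL9, TPM1, TPM2, CALD1, LMOD1 and MYH11, and their rows were found by symbol. The list was chosen with earlier results of these data known. Messenger RNA was sequenced from fibroblasts of 4 Angus and 4 Holstein heifers, a beef and a dairy breed, grown from shoulder skin taken when the animals were in the second year of life. Each culture was sampled at 0 h, before lipopolysaccharide (LPS, from the outer membrane of Gram-negative bacteria), and at 2 h and 8 h after LPS was added at 100 ng/ml, which gave 24 samples in 6 groups of 4. The Angus 0 h and Holstein 0 h groups received no LPS, and the other 4 groups, Angus and Holstein at 2 h and 8 h, received the same dose. All cultures had been isolated with collagenase, frozen at the third passage, revived together and grown in medium with fetal bovine serum. The wells kept without LPS were those of 0 h, so LPS and time in culture cannot be told apart. Each sample stands for 1 animal at 1 hour, and the same 8 animals recur at the 3 hours. No other treatment entered any group used here.

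A myofibroblast is a fibroblast that has taken up part of the equipment of smooth muscle. Its actin bundles, the stress fibres, contain alpha smooth muscle actin and pull on the surrounding collagen through myosin. Transforming growth factor beta and a stiff substrate such as culture plastic favour this state, and many of its genes are driven by serum response factor (SRF) together with myocardin or the myocardin-related factors MKL1 and MKL2. Cultured dermal fibroblasts usually carry some of these proteins without being smooth muscle. In bulk samples, more cells of one state and more RNA per cell cannot be told apart.

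Every gene had 1 row in the tables, a whole gene span with introns included, and positions are on UMD v3.1. ACTA2 lay on chromosome 26 (10662363 to 10679648), ACTG2 on 11 (10717558 to 10740084), TAGLN on 15 (28318411 to 28323667) and CNN1 on 7 (17106394 to 17114224). MYL9 lay on 13 (66306260 to 66314230), TPM1 on 10 (47056202 to 47072869), TPM2 on 8 (60267451 to 60274815) and CALD1 on 4 (99475015 to 99580189). LMOD1 lay on 16 (49624531 to 49651879) and MYH11 on 25 (14217720 to 14343745). The MYH11 span shared 19525 bases with NDE1 on the opposite strand, and the counts of those bases cannot be assigned to either gene. No gene row overlapped the other 9. The 10 genes were therefore at 10 loci on 10 chromosomes, and no pair shared a row.

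A level of 1 CPM (counts scaled to a library of 1000000) stood for 51.0 to 104.4 counts in a sample, and the lowest count of any member in any sample was 976, for MYH11. All 10 passed the limit of 1 CPM in every comparison, and 20245 rows reached it in no fewer than 12 of the 24 samples. Levels below are CPM after scaling of the libraries, and they are compared between samples only, since a level per transcript length could not be computed. In 4 samples (Angus 4, Holstein 2 and Holstein 4 at 0 h and Angus 3 at 2 h) COL1A1 had been counted in another way. For 9 of the members the covered bases per count varied by a factor of 1.017 to 1.067. These 9 had been counted alike in all 24. For MYH11 the factor was 1.154. Its covered bases per count were 91.8 to 97.2 in Angus, 84.2 to 90.8 in Holstein 1 and 2, and 91.4 to 94.8 in Holstein 3 and 4. The part of this in the MYH11 levels was not tested. The same 4 samples also had the highest shares of matched reads, at 96.2% to 96.5%, against at most 95.2% in the others. How rows other than COL1A1 and the members had been counted was not checked.

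The cultures carried fibroblast markers throughout, with 11 of 11 at 1 CPM or more in all 24 samples. Of 9 other smooth muscle and pericyte markers with a row, 5 reached 1 CPM in no fewer than 12 samples. In all 24 it was reached by SYNPO2 (56.3 to 464 CPM), CSPG4 (110 to 411 CPM) and ITGA8 (12.9 to 67.9 CPM). ABCC9 reached it in 22, RGS5 in 13, MCAM in 5 and KCNJ8 in 0. DES, the intermediate filament protein of muscle, was at 0.0121 to 1.46 CPM, and MYOCD, the smooth muscle co-activator myocardin, at 0.114 to 1.53 CPM. DES and MYOCD reached 1 CPM in 1 and 4 of the 24 samples, where 3 counts stood for 0.0287 to 0.0588 CPM. Skeletal muscle markers reached 1 CPM in 12 or more samples for 1 of 10, endothelial for 2 of 6, keratinocyte for 0 of 6, leukocyte for 1 of 5, melanocyte for 1 of 4 and adipocyte for 2 of 4. The keratin KRT5 was at 8.32 to 10.2 CPM in Holstein 1 and below 1 CPM in the other 21 samples.

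ACTA2 encodes alpha smooth muscle actin, the protein by which myofibroblasts are recognised. At 0 h it stood at 3477, 5975, 4556 and 4085 CPM in Angus 1 to 4 and at 7843, 6430.1, 6514 and 6251 CPM in Holstein 1 to 4, so that every Holstein culture lay above every Angus culture. At 2 h the values were 4116, 6539.8, 4436 and 4869 CPM in Angus and 7025, 6660.2, 6756 and 5952 CPM in Holstein, and Angus 2 now lay among the Holstein cultures. At 8 h they were 2742, 4556, 2884 and 2957 CPM in Angus and 5313, 4077, 5036 and 3832 CPM in Holstein. All 8 cultures were lower at 8 h than at 0 h, and Angus 2 stood well above the other Angus cultures. ACTG2, the gamma actin of visceral smooth muscle, differed mostly between animals. It was at 76.2, 145, 115 and 85.4 CPM in Angus and 166, 251, 153 and 95.5 CPM in Holstein at 0 h. Holstein 2 was the highest culture and Holstein 4 lay within the Angus range at all 3 hours.

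The actin-binding members hold, stiffen or regulate the filament. CNN1, calponin 1, restrains the myosin ATPase. It was at 188, 279, 258 and 244 CPM in Angus and 295, 257, 259 and 193 CPM in Holstein at 0 h, and at 336, 419, 351 and 352 CPM and 341, 353, 325 and 232 CPM at 2 h. At 8 h it was at 242, 312, 271 and 224 CPM in Angus and 313, 271, 290.0 and 197 CPM in Holstein. The breeds overlapped at every hour, and each of the 8 cultures was highest at 2 h. CALD1, caldesmon, blocks myosin from actin until calcium rises, and its levels at 0 h were 922, 1421, 1559 and 998 CPM in Angus and 1696, 1765, 1498 and 1547 CPM in Holstein. At 8 h they were 673, 1009.6, 1137 and 740.2 CPM in Angus and 1354, 1393, 1233 and 1218 CPM in Holstein. Angus 1 and 4 were the low cultures at 0 h, and at 8 h the breeds no longer overlapped.

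TAGLN (transgelin, an actin cross-linker) and the tropomyosins TPM1 and TPM2, which lie along the filament, are given by their ranges. At 0 h TAGLN ranged over 1054 to 1816 CPM for the Angus cultures and 1679.5 to 2042 CPM for the Holstein cultures. At 2 h the 4 Holstein cultures lay between 1912 and 1987 CPM, an SD of 1.72% of the mean, against 1457 to 2140.0 CPM in Angus. In the same order of breeds, TPM1 ranged over 956 to 1423 CPM and 1394 to 1599 CPM at 0 h, and TPM2 over 607 to 929 CPM and 786 to 1009 CPM. The breeds overlapped at all 3 hours for each of these 3 genes, with Angus 2 above the lowest Holstein culture.

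The motor itself was represented by MYL9, the regulatory light chain whose phosphorylation starts contraction, and by MYH11, the heavy chain of smooth muscle myosin. MYL9 was at 304, 394, 408 and 347 CPM in Angus and 508, 423, 415 and 424 CPM in Holstein at 0 h. The breeds did not overlap at 0 h or 2 h, and at 8 h Holstein 4, at 357 CPM, lay just inside the Angus range of 253 to 361 CPM. MYH11 was at 16.3, 18.7, 17.0 and 19.2 CPM in Angus and 25.2, 28.6, 20.7 and 21.4 CPM in Holstein at 0 h. It was at 20.4, 23.2, 22.5 and 20.1 CPM in Angus and 31.6, 41.3, 27.5 and 34.0 CPM in Holstein at 2 h, and at 8 h at 15.7, 19.5, 17.1 and 16.5 CPM and 24.8, 43.7, 26.2 and 31.6 CPM. Every Holstein culture lay above every Angus culture at each hour, and Holstein 2 was the highest throughout.

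LMOD1, leiomodin 1, starts new actin filaments in smooth muscle. At 0 h it was at 20.7, 28.4, 31.7 and 25.9 CPM in Angus and 42.3, 35.6, 37.3 and 34.9 CPM in Holstein, and at 2 h at 36.2, 38.3, 34.2 and 36.9 CPM and 43.7, 42.2, 48.4 and 47.2 CPM. At 8 h it was at 15.9, 21.9, 19.2 and 14.3 CPM in Angus and 35.6, 29.2, 32.9 and 26.5 CPM in Holstein. The breeds did not overlap at any hour, and every culture was highest at 2 h and lowest at 8 h.

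**Figure D1:**
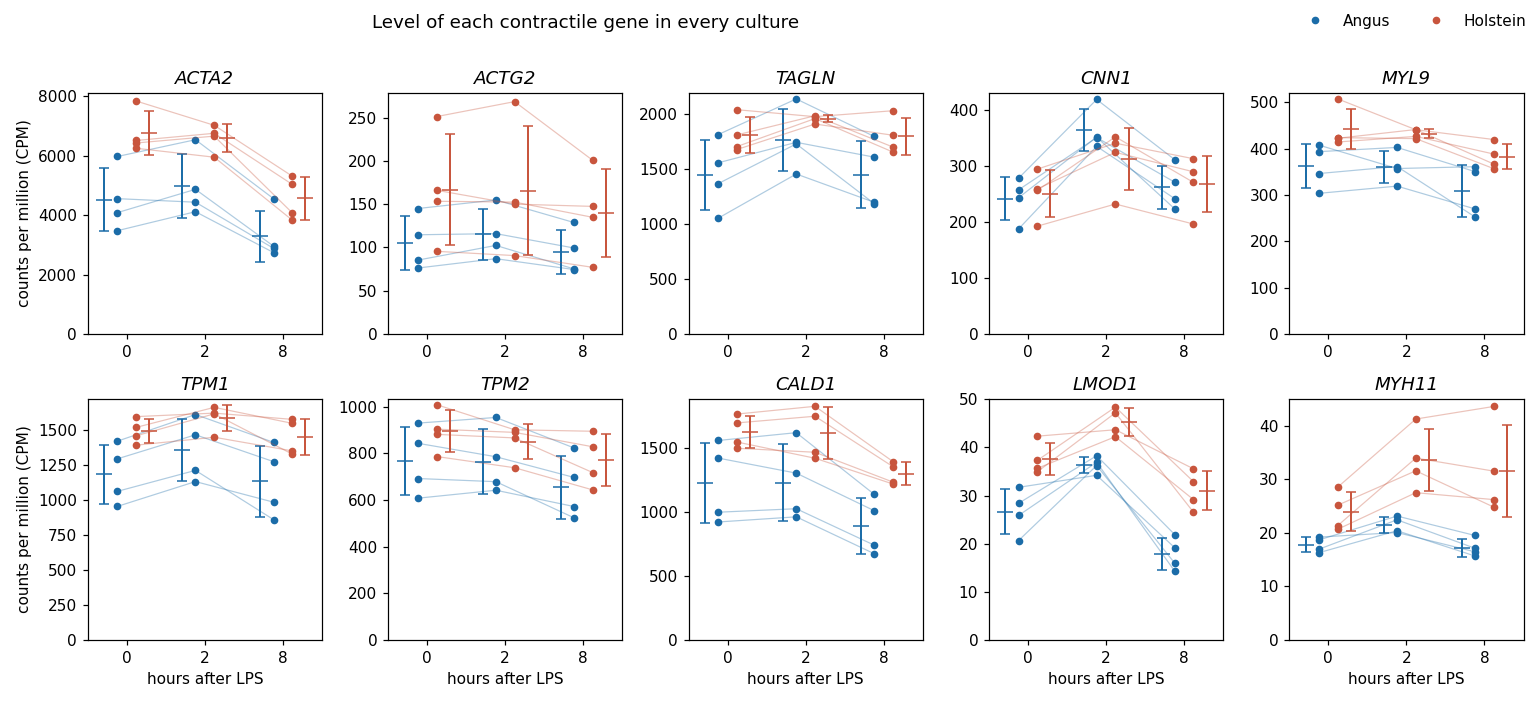
Level of each of the 10 genes (CPM, linear axis from 0) at 0, 2 and 8 h after LPS, with 1 point per culture, thin lines joining the samples of 1 animal, and bars for the mean ± SD of 4 cultures. Holstein points lie above all Angus points at the 3 hours for LMOD1 and MYH11, while the CNN1 points of the breeds are mixed and peak at 2 h.

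Holstein and Angus cultures were compared at each hour to ask whether the contractile genes differed between the breeds before and after LPS. Before LPS, 3 of the 10 members were higher in Holstein, where 13.8% of all rows passed the test and 6.83% were higher in Holstein. ACTA2 averaged 6759 ± 730.3 CPM in Holstein and 4523 ± 1064 CPM in Angus (SD, n = 4 each), a log2 difference of 0.59 ± 0.17 (SE, FDR = 0.0079). LMOD1 averaged 37.6 ± 3.34 against 26.7 ± 4.66 CPM, a log2 difference of 0.51 ± 0.14 (SE, FDR = 0.0065), and MYH11 23.95 ± 3.66 against 17.8 ± 1.38 CPM, a log2 difference of 0.44 ± 0.14 (SE, FDR = 0.017). The 7 others did not pass the test, and all 10 differences were above 0. Among those 7, the log2 difference was largest for ACTG2, at 0.68 ± 0.29 (SE, FDR = 0.11), and smallest for CNN1, at 0.07 ± 0.16 (SE, FDR = 0.84). It was 0.42 (FDR = 0.097) for CALD1, 0.35 (FDR = 0.076) for TPM1, 0.34 (FDR = 0.17) for TAGLN, 0.30 (FDR = 0.10) for MYL9 and 0.23 (FDR = 0.32) for TPM2. The median over the 10 was 0.39 on the log2 scale, against 0.00 over all rows tested.

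At 2 h, 2 of 10 members were higher in Holstein, against 20.1% of all rows that passed and 10.4% that were higher. The share of 2 in 10 was near that of all rows that passed in either direction. The 2 genes were LMOD1, with a log2 difference of 0.32 ± 0.10 (SE, FDR = 0.017), and MYH11, with 0.64 ± 0.14 (SE, FDR = 0.00031). CNN1 was the one member with a lower mean in Holstein, at −0.22 ± 0.16 (SE, FDR = 0.34), and this difference did not pass the test. At 8 h, 3 of 10 were higher, against 16.5% that passed and 8.72% that were higher. CALD1 averaged 1299.7 ± 87.0 CPM in Holstein and 890.1 ± 219.7 CPM in Angus, a log2 difference of 0.55 ± 0.17 (SE, FDR = 0.016). LMOD1 averaged 31.0 ± 3.98 against 17.8 ± 3.38 CPM, with 0.81 ± 0.16 (SE, FDR = 6.2e-05), and MYH11 31.6 ± 8.56 against 17.2 ± 1.66 CPM, with 0.88 ± 0.19 (SE, FDR = 0.00023). CNN1 stood at 0.04 ± 0.17 (SE, FDR = 0.91). No member differed by 2-fold between the breeds at any hour, and the MYH11 difference at 8 h was the largest, a ratio of means of 1.84.

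Complete separation of the breeds was also counted. Every Holstein culture exceeded every Angus culture for 4 of 10 members at 0 h, 3 at 2 h and 3 at 8 h. Over all rows this held for 8.42%, 12.6% and 10.7%. LMOD1 and MYH11 were among them at each hour, MYL9 at 0 h and 2 h, ACTA2 at 0 h and CALD1 at 8 h. The same 8 animals enter at the 3 hours, so these are not 3 independent comparisons.

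By the quasi-likelihood F test, ACTA2 at 0 h (FDR = 0.054) and CALD1 at 8 h (FDR = 0.056) did not pass. Without Holstein 1, ACTA2 at 0 h stood at 0.52 (FDR = 0.051). MYH11 at 0 h was lost without Angus 1, Holstein 1 or Holstein 2, with log2 differences of 0.35 to 0.42 and an FDR of 0.072 to 0.090. LMOD1 at 2 h was lost without Angus 1, Holstein 3 or Holstein 4, at 0.29 to 0.32 (FDR of 0.061 to 0.068), and CALD1 at 8 h without Angus 1, Angus 4 or Holstein 2, at 0.43 to 0.52 (FDR of 0.068 to 0.082). LMOD1 at 0 h and 8 h and MYH11 at 2 h and 8 h passed in all 8 fits that left out 1 animal. Leaving out Angus 2 gave 6 members that passed at 0 h, 4 at 2 h and 6 at 8 h. With each gene in SDs, Angus 2 had the highest mean over the 10 members among the Angus cultures at each hour. Leaving out Angus 3 gave 6 at 0 h. The shares of all rows that passed in these fits are not given here, so the counts cannot be set against them. Without the 4 samples in which COL1A1 had been counted in another way, none of the 10 passed at 0 h, where 3 Angus and 2 Holstein cultures remained. The log2 differences were then 0.62 for ACTA2 (FDR = 0.22), 0.57 for LMOD1 (FDR = 0.17) and 0.41 for MYH11 (FDR = 0.29).

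**Figure D2:**
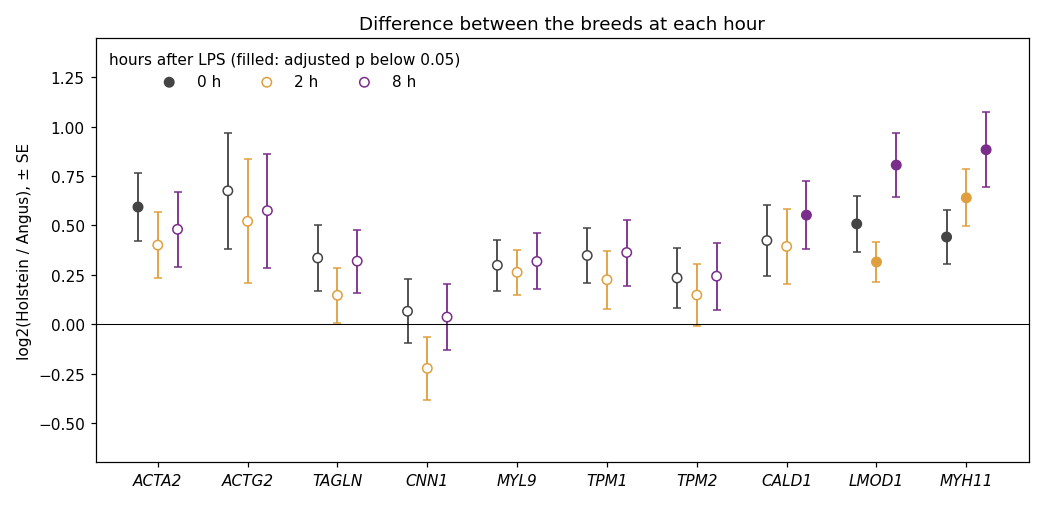
Log2 ratio of Holstein to Angus (± SE from the fitted model) for each gene at 0, 2 and 8 h, from 4 cultures a breed. Filled points passed an FDR of 0.05, and LMOD1 and MYH11 passed at all 3 hours, with MYH11 reaching 0.88 at 8 h.

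The summed level of the 9 other smooth muscle and pericyte markers was 383 to 562 CPM (Angus) and 544 to 730.2 CPM (Holstein) at 0 h, 435 to 569.6 against 567 to 674 CPM at 2 h and 262 to 398 against 424 to 535 CPM at 8 h. The mean of the sum went from 475 CPM at 0 h to 327 CPM at 8 h in Angus and from 637 to 474 CPM in Holstein. SYNPO2, an actin-binding protein of muscle and fibroblasts, averaged 382 CPM in Holstein and 222 CPM in Angus at 0 h, and CSPG4, a pericyte proteoglycan, 213 and 211 CPM. Without SYNPO2 the 8 others gave 177 to 336 CPM (Angus) and 199 to 312 CPM (Holstein) at 0 h, 258 to 438 against 328 to 435 CPM at 2 h and 134 to 282 against 185 to 201 CPM at 8 h, so the breeds overlapped at all 3 hours. CSPG4 was the largest part of the sum of these 8, so the overlap says little of the others. At 0 h the mean was higher in Holstein for ABCC9 (4.35 against 2.45 CPM) and RGS5 (2.53 against 1.01 CPM). So it was for DES (0.443 against 0.0461 CPM), MYOCD (0.450 against 0.229 CPM) and KCNJ8 (0.106 against 0.0813 CPM). ITGA8 (33.4 against 37.8 CPM) and MCAM (0.756 against 0.778 CPM) were lower. KCNJ8 had 0 counts in 8 samples, and no other of the 9 was at 0 in any. Their part in the breed differences and in the changes after LPS was not tested. For MYH11, the overlapping NDE1 row did not pass the test between breeds at any hour (log2 differences of −0.22, −0.11 and 0.12 at 0, 2 and 8 h).

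After LPS the members that passed the test were higher at 2 h and lower at 8 h with the breeds combined, and the pairing of samples by animal changed how many passed. At 2 h against 0 h with the breeds combined, 2 of 10 were higher when the animal was left out of the model, against 22% of all rows that passed, so the share was near that of all rows in either direction. CNN1 rose, at a log2 change of 0.46 ± 0.12 (SE, FDR = 0.00089), and so did LMOD1, at 0.35 ± 0.13 (SE, FDR = 0.044). With the animal as a replicate block, 5 of 10 were higher and none lower, against 47.5% of all rows that passed and 22.2% that were higher. The share that passed was again close to that of all rows, and the median log2 change over the 10 was 0.10, against −0.01 over all rows. The 5 were CNN1 at 0.46 ± 0.07 (SE, FDR = 3.1e-10), MYH11 at 0.38 ± 0.06 (SE, FDR = 3.0e-08), LMOD1 at 0.37 ± 0.08 (SE, FDR = 6.0e-06), TAGLN at 0.21 ± 0.06 (SE, FDR = 0.0021) and TPM1 at 0.15 ± 0.05 (SE, FDR = 0.0097). Both actins, MYL9, TPM2 and CALD1 did not pass, with blocked log2 changes between −0.04 and 0.06.

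Within animals, CNN1, TPM1, LMOD1 and MYH11 were higher at 2 h than at 0 h in 8 of 8, which held for 17% of all rows. Per animal, the log2 change of CNN1 was 0.21 to 0.84, that of MYH11 0.06 to 0.67 and that of LMOD1 0.04 to 0.81. TAGLN was higher in 7 of 8, and the exception was Holstein 1.

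At 8 h against 0 h with the breeds combined, 1 of 10 passed without the block, a share near the 12.8% of all rows. ACTA2 fell, at a log2 change of −0.52 ± 0.18 (SE, FDR = 0.042). With the animal as a block, 6 of 10 were lower and none higher, against 40.7% of all rows that passed and 21.2% that were lower. The median log2 change over the 10 was −0.21, against −0.01 over all rows. The 6 were ACTA2 at −0.51 ± 0.06 (SE, FDR = 2.3e-15), LMOD1 at −0.42 ± 0.08 (SE, FDR = 3.3e-07), CALD1 at −0.39 ± 0.05 (SE, FDR = 5.5e-16), MYL9 at −0.22 ± 0.05 (SE, FDR = 6.2e-05), TPM2 at −0.22 ± 0.05 (SE, FDR = 4.3e-05) and ACTG2 at −0.19 ± 0.05 (SE, FDR = 0.00017). TAGLN at 0.00 (FDR = 0.98), TPM1 at −0.05 (FDR = 0.44), CNN1 at 0.11 (FDR = 0.097) and MYH11 at 0.17 (FDR = 0.15) did not pass.

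The 6 that fell were lower in 8 of 8 animals, which held for 15.1% of all rows. CALD1 was the most even of them, with log2 changes of −0.49 to −0.43 in the 4 Angus and −0.34 to −0.28 in the 4 Holstein cultures. From 2 h to 8 h, 7 of 10 members were lower in all 8 animals (17.6% of all rows), the exceptions being TAGLN, MYL9 and MYH11 with 7 of 8 each. LMOD1 moved furthest between those hours, by −1.37 to −0.30 on the log2 scale. The 2 h and 8 h comparisons share the 0 h samples.

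Without the block, LMOD1 at 2 h was kept in 1 of 8 fits that left out an animal (that without Holstein 1), with log2 changes of 0.30 to 0.39 and an FDR of 0.055 to 0.11 in the other 7. ACTA2 at 8 h was kept in 2 of 8 (those without Angus 1 or Angus 4), with log2 changes of −0.55 to −0.48 and an FDR of 0.059 to 0.14 in the other 6. CNN1 at 2 h passed in all 8. By the quasi-likelihood F test without the block, LMOD1 at 2 h (FDR = 0.055) and ACTA2 at 8 h (FDR = 0.068) did not pass. Without the 4 samples in which COL1A1 had been counted in another way, neither hour had a member that passed, and CNN1 stood at 0.39 (FDR = 0.0501).

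**Figure D3:**
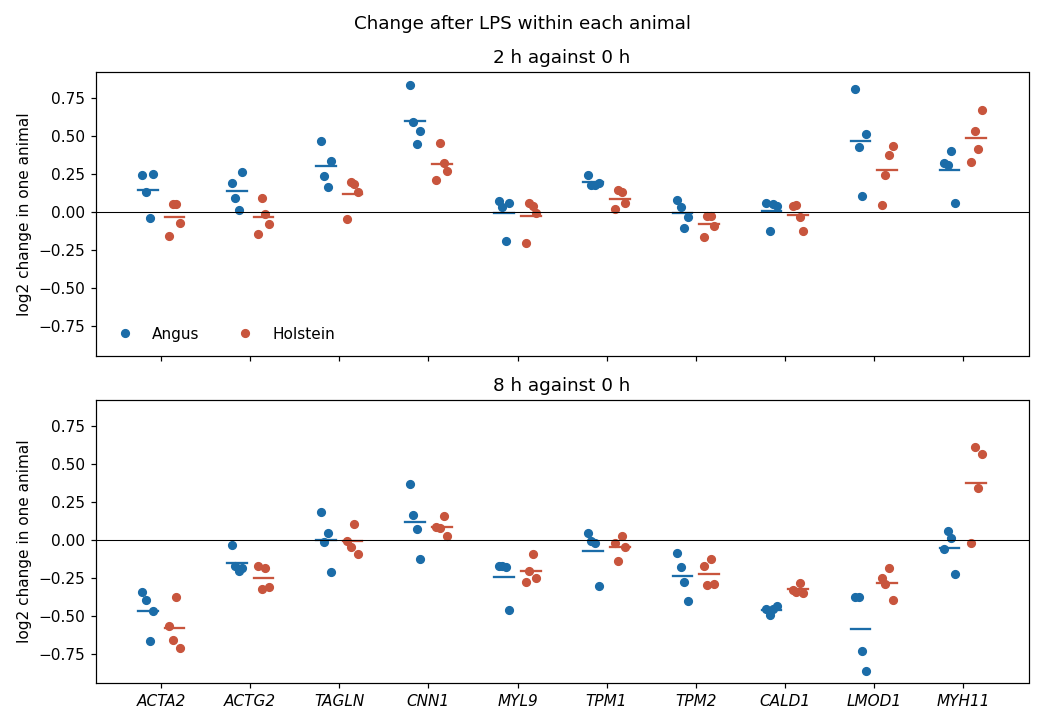
Log2 change of each gene within each animal at 2 h (upper panel) and 8 h (lower panel) against 0 h, with 4 Angus and 4 Holstein points a gene and a bar at the mean of each breed. All 8 points lie above 0 at 2 h for CNN1, TPM1, LMOD1 and MYH11, and all 8 below 0 at 8 h for ACTA2, ACTG2, MYL9, TPM2, CALD1 and LMOD1.

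The same comparisons were made within each breed. In Holstein cultures 2 of 10 passed at 2 h (17.2% of all rows), LMOD1 at 0.27 (FDR = 0.035) and MYH11 at 0.48 (FDR = 0.017), and both rose. With the block CNN1 joined them at 0.31 (FDR = 8.6e-05), which made 3 (35.8% of all rows). At 8 h in Holstein, ACTA2 fell, at a log2 change of −0.56 (FDR = 0.00061), and CALD1 at −0.32 (FDR = 0.014), against 14.7% of rows that passed. With the block, 6 of 10 were lower in Holstein and MYH11 was higher, at 0.38 (FDR = 0.0041), against 35.2% of rows.

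In Angus cultures 2 of 10 passed at 2 h (13.8% of all rows), CNN1 at 0.60 (FDR = 0.0010) and LMOD1 at 0.46 (FDR = 0.014), and 5 with the block (35.8%), which added TAGLN, TPM1 and MYH11. At 8 h in Angus, LMOD1 alone passed, at −0.57 (FDR = 0.048), against 3.9% of rows, and with the block 5 were lower (20.7%), namely ACTA2, MYL9, TPM2, CALD1 and LMOD1. The block calls in Angus at 2 h were all higher. LMOD1 at 8 h in Angus was lost in each of the 4 fits without 1 animal, at −0.65 to −0.49 (FDR of 0.11 to 0.26), and by the quasi-likelihood F test (FDR = 0.13), and LMOD1 at 2 h without Angus 1, 2 or 4, at 0.35 to 0.46 (FDR of 0.12 to 0.19). In Holstein, LMOD1 at 2 h was lost without Holstein 2, 3 or 4, at 0.23 to 0.28 (FDR of 0.12 to 0.26), MYH11 at 2 h without Holstein 1 or 4, at 0.44 to 0.53 (FDR of 0.077 to 0.15) and CALD1 at 8 h without Holstein 1 or 4, at −0.31 in both (FDR of 0.0995 to 0.12).

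Whether the response to LPS differed between the breeds was tested as an interaction, and it did not pass for any member. By the likelihood-ratio test of edgeR, 0 of 10 passed at 2 h (0.437% of all rows) and 0 of 10 at 8 h (0.137%), and none had an unadjusted p under 0.05 at either hour. The quasi-likelihood F test and DESeq2 gave the same counts. With the block, 0 of 10 passed at 2 h (4.28% of rows) and at 8 h (2.59%), with 2 members under an unadjusted p of 0.05 at each hour. The largest blocked differences, Holstein minus Angus, were −0.28 ± 0.11 (SE, FDR = 0.12) for CNN1 at 2 h and 0.41 ± 0.14 (SE, FDR = 0.11) for MYH11 at 8 h.

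The MYH11 values after LPS need the NDE1 row beside them. NDE1 held 156% to 459% of the MYH11 counts and was itself higher after LPS with the breeds combined, by 0.35 at 2 h (FDR = 0.0080) and 0.50 at 8 h (FDR = 0.00015) on the log2 scale, and in Holstein by 0.68 at 8 h (FDR = 1.4e-08). Over the 24 samples the correlation between the NDE1 and MYH11 rows was 0.221. Its part in the change of MYH11 was not tested.

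How much of each gene's spread went with breed, animal and hour was described from the sums of squares of log2(CPM + 1) over the 24 samples. MYH11 varied mainly with breed, at 59.5% of its sum of squares, and ACTG2 mainly between animals of a breed, at 68.1%. LMOD1 varied with hour (49.4%) and breed (34.2%) and, among breed, animal and hour, least with animal (6.02%). CNN1 was split between animal (45.4%) and hour (43.8%), with 0.846% for breed. The animal also took the largest share in TPM2 (60.1%), TAGLN (46.5%) and TPM1 (44.9%). ACTA2 was divided among breed (35.2%), hour (37.0%) and animal (24.7%). The medians over all 20245 rows were 15.6% for breed, 27.8% for animal within breed and 20.5% for hour, so the breed share exceeded the median in 9 of 10 members.

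**Figure D4:**
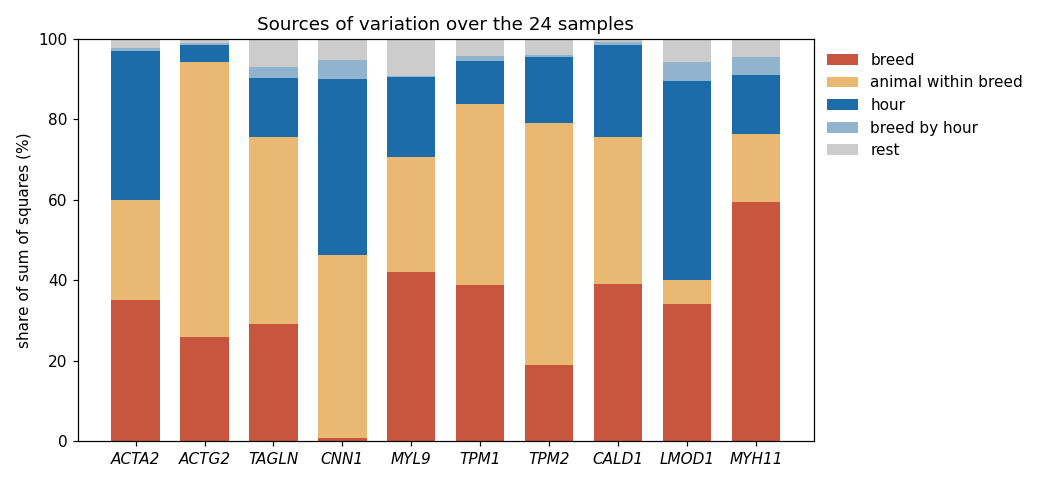
Share of the sum of squares of log2(CPM + 1) over 24 samples (%) taken by breed, animal within breed, hour, breed by hour and the rest, for each of the 10 genes. Breed takes 59.5% for MYH11 and 0.846% for CNN1, and the animal takes 68.1% for ACTG2.

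The cultures were also compared over all 10 genes together. When each gene was set in SDs from its own mean, the mean over the 10 members at 0 h was −1.50, 0.25, −0.07 and −0.79 in Angus 1 to 4 and 1.03, 0.68, 0.41 and 0.06 in Holstein 1 to 4. Angus 1 and 4 were the low cultures and Angus 2 the high one of its breed, above Holstein 4. At 8 h the means were −1.70, −0.15, −0.67 and −1.86 in Angus and 0.56, 0.22, 0.28 and −0.46 in Holstein. Angus 4 went furthest down between 0 h and 8 h. Over the 24 samples, which share 8 animals and 3 hours, the correlation between 2 members had a median of 0.723 over 45 pairs and ranged from 0.222 (CNN1 with MYH11) to 0.937 (TAGLN with TPM1). After the mean of each group was taken out, the median was 0.703, and 33 of 45 pairs were above 0.5. MYH11 stood apart from the others there, with 0.0586 to ACTA2 and −0.0742 to LMOD1, and was closest to ACTG2, at 0.533. The same was not computed for pairs of rows outside the members, so these correlations cannot be called particular to them.

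**Figure D5:**
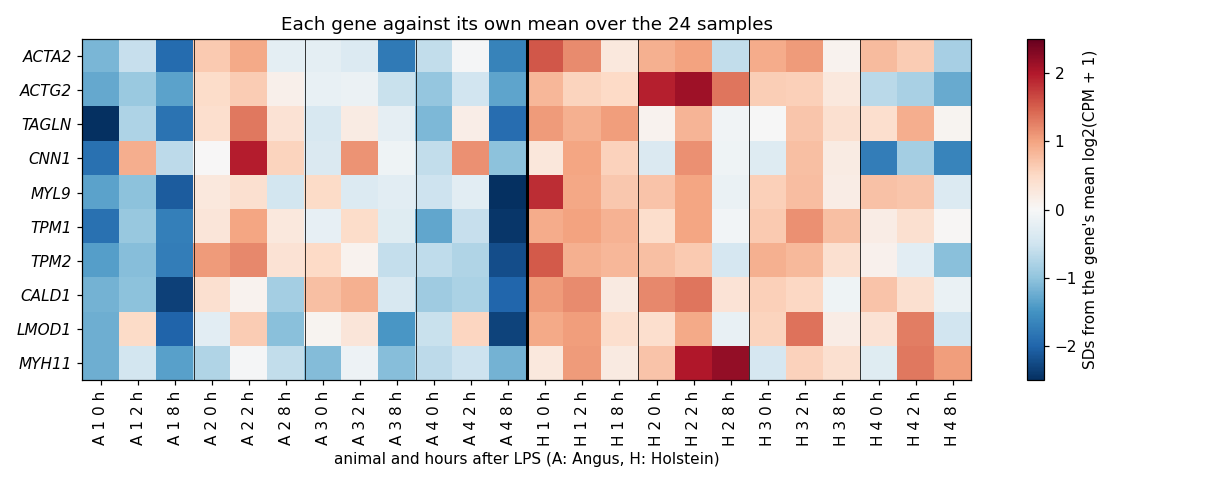
Each gene in each of the 24 samples, ordered by animal and hour, as the number of SDs from the gene's own mean log2(CPM + 1). The Angus 1 and Angus 4 columns at 0 h and 8 h are blue for all 10 genes, and the Holstein columns, right of the thick line, are mostly red, with Holstein 4 blue for CNN1 and ACTG2 at all 3 hours.

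The genes whose log2 levels followed ACTA2 most closely over the 24 samples, among 12948 rows with a symbol, were CBFA2T3 (r = 0.929), a transcriptional co-repressor, CSRP2 (r = 0.926), a LIM protein of smooth muscle, and ILK (r = 0.914), a kinase of integrin adhesions. The mean of the 10 members was followed most closely by ITGB1 (r = 0.935), the beta 1 integrin, PDLIM7 (r = 0.926), a LIM protein on actin bundles, and MSRB3 (r = 0.922). These correlations are descriptions over samples that share 8 animals and 3 hours.

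The wider contractile programme was read from 39 further smooth muscle and actin-fibre genes, of which 37 were tested at 0 h between breeds. There 6 were higher in Holstein and 0 lower, near the 13.8% of all rows that passed in either direction, while 6.83% were higher. The median log2 difference of the list was 0.16. At 2 h it was 8 higher and 3 lower of 37 (median 0.12), where 20.1% of all rows passed and 10.4% were higher. At 8 h it was 8 higher and 0 lower of 35 (median 0.22), where 16.5% passed and 8.72% were higher. The medians over all rows were between −0.01 and 0.01. PPP1R14A, an inhibitor of myosin phosphatase, had the largest differences, with log2 values at 0, 2 and 8 h of 2.07 (FDR = 7.6e-05), 1.77 (FDR = 0.00029) and 2.19 (FDR = 2.9e-08). ACTC1, the cardiac actin, stood at 1.15 (FDR = 0.0030) at 0 h, and SYNPO2 at 1.33 (FDR = 0.0025) at 8 h. PPP1R14A and ACTC1, both among the 6 at 0 h, were low. Over the 0 h and 2 h samples they averaged 1.39 and 1.18 CPM with the breeds combined, and 2.16 and 1.58 CPM in Holstein. In the Angus samples of those hours alone, neither reached the limit of 1 CPM for the test. Their log2 differences therefore rest on Angus levels near or below that limit.

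After LPS with the breeds combined, 4 of 37 of these genes were higher and 0 lower at 2 h, against 22% of all rows that passed, and 11 and 5 with the block, against 47.5%. Among the 4 were TNS1, a tensin of focal adhesions, at 0.42 (FDR = 0.024), and TPM4, a further tropomyosin, at 0.34 (FDR = 0.00019). At 8 h 1 of 36 was higher and 7 lower, against 12.8% of all rows that passed, and 4 and 19 with the block, against 40.7%. CSRP2 was at −0.81 (FDR = 0.015), TNS1 at −0.55 (FDR = 0.0060), PALLD, a scaffold of actin bundles, at −0.47 (FDR = 0.0024) and CNN2, calponin 2, at −0.41 (FDR = 4.8e-05). TNS1 thus rose at 2 h and fell at 8 h, and the median log2 change of the list without the block was 0.07 at 2 h and −0.13 at 8 h.

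The factors that drive many of these genes were read one by one. After LPS with the breeds combined, SRF rose at 2 h, at 0.50 (FDR = 0.00086), and stood at −0.01 (FDR = 0.95) at 8 h. MKL1 was at −0.02 (FDR = 0.93) at 2 h and −0.14 (FDR = 0.36) at 8 h, and MKL2 at −0.35 (FDR = 0.11) and −0.29 (FDR = 0.18), or −0.38 (FDR = 3.3e-08) and −0.30 (FDR = 5.2e-07) with the block. MYOCD did not reach the limit of 1 CPM for the test.

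Between breeds, MKL2 was higher in Holstein at each hour, at 0.39 (FDR = 0.015), 0.69 (FDR = 1.9e-05) and 0.51 (FDR = 0.0042) at 0, 2 and 8 h. SRF was at −0.22 (FDR = 0.25), −0.50 (FDR = 0.0037) and 0.03 (FDR = 0.90) in the same order, so it was lower in Holstein at 2 h.

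Of 30 genes of the transforming growth factor beta signal and the matrix of myofibroblasts, 29 were tested, and 11 were higher in Holstein and 1 lower at 0 h, 13 and 2 at 2 h, and 12 and 1 at 8 h. Over all rows, 13.8%, 20.1% and 16.5% passed at 0, 2 and 8 h, and 6.83%, 10.4% and 8.72% were higher. The medians of the log2 difference over the list were 0.42, 0.32 and 0.35. The ligand TGFB2 differed by 1.33 (FDR = 0.00011), 1.56 (FDR = 9.7e-06) and 1.62 (FDR = 4.8e-05) at 0, 2 and 8 h, the collagen receptor ITGA11 by 1.42 (FDR = 0.00049), 1.58 (FDR = 7.4e-05) and 1.59 (FDR = 0.00021), and fibronectin, FN1, by 1.16 (FDR = 2.4e-07) at 8 h. TGFBR3, the co-receptor betaglycan, was lower in Holstein at 0 h, at −1.26 (FDR = 0.00014). After LPS with the breeds combined, 5 of the 29 were higher and 0 lower at 2 h, and 8 and 2 with the block, both below the shares of all rows that passed, 22% and 47.5%. At 8 h 5 were higher and 5 lower, against 12.8% of all rows, and 9 and 13 with the block, against 40.7%. SMAD7, the inhibitor of the pathway, was at 1.97 (FDR = 3.0e-22) at 2 h and 0.59 (FDR = 8.7e-08) at 8 h, and the ligand TGFB1 at 1.01 (FDR = 4.2e-21) and 0.42 (FDR = 0.00050). SMAD7 also differed between the breeds in its 2 h response, Holstein minus Angus, at 1.04 (FDR = 1.9e-05). COL1A1 was at −1.35 (FDR = 0.0031) at 8 h, and its counts had been made in another way in 4 samples, 3 of them at 0 h. Those 3 held 2232026 to 3269979 raw COL1A1 counts, against 706685 to 934603 in the other 0 h samples. The 8 h samples held 385704 to 957992. The fall of COL1A1 and the way of counting therefore cannot be told apart in this value.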

How the data were processed

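Polyadenylated RNA of 24 samples, each pooled from duplicate wells of 1 culture, was made into TruSeq libraries and sequenced on an Illumina HiSeq. The authors filtered the reads on quality and aligned them to UMD v3.1 with NextGENe 2.3.4, and the submitters' processing notes also name CASAVA 1.7. The deposited values are raw read counts per row, a gene span with introns or an interval without a symbol (59846 rows). The deposited mean coverage of each row, a signal, was used for a check of the counting alone. Methylation sequencing of the cultures was not analysed here.

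Total counts per sample were 51014538 to 104406293, with 92.9% to 96.5% of reads matched, and 3 counts stood for 0.0287 to 0.0588 CPM. Groups and animal numbers came from the labels. In edgeR 4.0.16 (R 4.3.3), rows at 1 CPM or more in 50% or more of the samples compared were kept, libraries were scaled by TMM, and each of 11 comparisons was fitted on its own samples with a likelihood-ratio test. FDR is the Benjamini-Hochberg adjusted p over all rows of that fit, and its limit was 0.05. Standard errors came from the information matrix. The script was tested on simulated data. Same-numbered samples of a breed come from 1 animal. Their deviations from the group means correlated at 0.659 (0 h with 2 h, lowest pair 0.545) and 0.619 (0 h with 8 h, lowest pair 0.534). Between animals of a breed the means were −0.218 and −0.206. Taking out the group means forces these below 0 when the former are high, so they are no separate measure. The animal was therefore also fitted as a replicate block. Between breeds, equal numbers mark unrelated animals. Alternatives were other scaling, tests (the quasi-likelihood F test and DESeq2 1.42.0), filters and samples, and a pseudocount of 0.1 in place of 1 CPM. Genes outside the 10 were named by a rule, at most the 4 largest changes that passed in a list and comparison, and SRF, MYOCD, MKL1 and MKL2 always. The members and gene lists were chosen with earlier results of these data known. No sequence of the 10 genes was used here, and 1 gene list is not reported here beyond SRF, MYOCD, MKL1 and MKL2.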

Additional observations from a re-analysis of the deposited data

Results flagged for a closer look

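In 3 of 60 combinations of gene and group, 1 culture stood apart from the other 3 by a gap that took most of the group's range, where chance gives about 1 in 20. ACTA2 in Angus 2 at 8 h was at 4556 CPM, and the next Angus culture was at 2957 CPM. ACTA2 in Holstein 1 at 0 h was at 7843 CPM, with the next Holstein culture at 6514 CPM. MYL9 in Holstein 1 at 0 h was at 508 CPM, with the next at 424 CPM. Holstein 1 was also the culture with KRT5, a keratin of basal keratinocytes, at 9.20 CPM at 0 h, and the part of this in its levels was not tested. No member's response to LPS passed the test of a difference between the breeds.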

How the results depend on the processing

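Counts of the 10 members that passed the test depended most on the animal term. With the replicate block they were 5, 3 and 5 at 2 h (breeds combined, Holstein and Angus, in place of 2, 2 and 2) and 6, 7 and 5 at 8 h (in place of 1, 2 and 1), and a quasi-likelihood F test with the block, an alternative chosen after seeing the data, gave the same counts, 5, 3, 5, 6, 7 and 5. The paired fits changed no interaction call, and no paired analysis was possible between the breeds because the animals are nested in them. Without the block, the quasi-likelihood F test gave 1 in place of 2 at 2 h with the breeds combined, and 0 in place of 1 at 8 h both combined and in Angus. With no filter on low counts it was 1 at 2 h combined, in Holstein and in Angus, 0 at 8 h combined and in Angus, and 1 in place of 2 between the breeds at 2 h. There DESeq2 gave 4, and rows with a symbol alone gave 4. Without the 4 samples in which COL1A1 had been counted in another way, the counts were 0 at 2 h and 8 h combined, 1 and 1 in Holstein, 1 and 0 in Angus, and 0 between the breeds at 0 h. Scaling by DESeq2's size factors in edgeR moved no count by more than 1.5 times.

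Leaving out 1 animal at a time gave 1 to 2 members at 2 h and 0 to 1 at 8 h combined, 1 to 1 and 1 to 2 in Holstein, 1 to 2 and 0 to 0 in Angus, and 1 to 6, 1 to 4 and 2 to 6 between the breeds at 0, 2 and 8 h. The interaction gave 0 in all of these fits. Shares of all rows that passed in these fits are not given here. No log2 value of a member that had passed changed sign in any alternative. Of 1530 log2 values under alternatives, 74 changed sign, all from values of at most 0.14 in size that had not passed, and they included CNN1 between the breeds, which went from −0.030 to 0.17 at 0 h and from −0.042 to 0.16 at 8 h without 1 animal. TAGLN at 8 h combined was at −0.00029 without the block and at 0.0019 with it by either test, 0.00020 by scaling with size factors and by DESeq2, 0.0061 over rows with a symbol alone, 0.012 without the 4 samples and −0.021 to 0.025 without 1 animal. The smaller pseudocount moved no share of the sum of squares by more than 1 percentage point. In limits, 4 animals a breed, wells without LPS at 0 h only and whole gene spans as rows bound every comparison.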

Other observations

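Symbol-less intervals that adjoin 2 members also held many reads, and these intervals were picked out after their values were seen. Whether their reads came from the members was not tested. The interval at the 3′ end of TPM1 (UMD v3.1, chromosome 10, 46979998 to 47056201) held 89.1% to 113% of the TPM1 counts, and its level correlated with TPM1 at 0.950 over the 24 samples. Its log2 difference between the breeds was 0.28 at 0 h (FDR = 0.20). The interval at the 3′ end of CALD1 (chromosome 4, 99580190 to 99591041) held 53.7% to 68.5% of the CALD1 counts and correlated with CALD1 at 0.971. It was higher in Holstein at 8 h, by 0.50 on the log2 scale (FDR = 0.018), and lower after 8 h of LPS in Holstein, by −0.31 (FDR = 0.045).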
